A study of Bos taurus with 40 samples.

Results

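The transmembrane MARCH genes encode RING-CH ubiquitin ligases that sit in membranes and mark other membrane proteins for removal. The 9 rows MARCH1, MARCH2, MARCH3, MARCH4, MARCH5, MARCH6, MARCH8, MARCH9 and MARCH11 were taken by their older symbols (now MARCHF1 and so on) from count tables of 59051 rows, and each of the 9 had a row in all 4 RNA tables. MARCH7 and MARCH10 belong to the same RING-CH family, lack the membrane spans and are given apart from the 9. The samples were bovine (Bos taurus) and the labels give each one the genotype diploid, with no treating agent, breed or age. Granulosa cells, the somatic cells that line the follicle, were taken from single follicles. Each oocyte was matured in vitro with its cumulus cells, the somatic cells that surround it, and cumulus cells and a biopsy of its ooplasm (the cytoplasm of the oocyte) were collected at that step. Granulosa cells, cumulus cells and biopsies each had 4 libraries of a blastocyst group, whose oocytes went on to the blastocyst stage, and 4 of a cleavage group, which stopped during cleavage. A further 4 biopsies shared their numbers with 4 whole oocytes, and neither of these groups carries a fate. The granulosa and biopsy libraries share oocyte labels (B20, B21, D24 and D27 for blastocyst, B14, B23, D10 and D29 for cleavage), while the cumulus columns carry only the fate and a number of their own.

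A RING-CH domain near one end of these proteins recruits a ubiquitin-conjugating enzyme, and the membrane spans place it beside its targets, which are then drawn into the endocytic or the proteasomal route. MARCH1 and MARCH8 are close relatives that act on surface and endosomal receptors: MARCH1 removes MHC class II and CD86 from antigen-presenting cells, and MARCH8 acts on the transferrin receptor among others. MARCH2 and MARCH3 work on endosomes, MARCH4, MARCH9 and MARCH11 in the Golgi and the vesicles that leave it, MARCH5 in the outer mitochondrial membrane, and MARCH6 in the endoplasmic reticulum, where it is the counterpart of yeast Doa10. In the follicle such turnover of membrane proteins bears on the organelles of a growing oocyte and on the receptors of the cells around it.

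Values are counts in CPM (counts relative to a library of 1000000, scaled for library composition by TMM within each count table). A gene was called when edgeR's quasi-likelihood test gave a Benjamini-Hochberg adjusted p under 0.05 over all rows tested, and errors are SD over libraries with n = 4 per group unless stated. Row lengths were not given, so a CPM compares libraries for a gene and does not compare genes. Libraries held 9875705 to 17668550 counts in granulosa cells, 7964591 to 9592127 in cumulus cells, 16804281 to 22557007 in biopsies, 13442089 to 20495725 in matched biopsies and 17221668 to 23790073 in whole oocytes. Of 13 oocyte markers only H1FOO, the oocyte linker histone, had a row under its symbol, and it stood at 456 to 1529 CPM in biopsies and oocytes, 0 to 0.108 in cumulus cells, 5.80 to 22.3 in granulosa cells of the blastocyst group and 0.302 to 6.74 in those of the cleavage group. None of the 12 granulosa, 7 cumulus, 4 theca, 9 immune and 4 endothelial markers had a row under a symbol, so the somatic labels were not checked against markers. Rows of the NONCODE catalogue held 4.21% to 9.27% of the counts in biopsies and oocytes and at most 0.00276% in granulosa and cumulus libraries, which come from other count tables. CPM were scaled within a table, whereas the tests between cell types scaled both tables together, so a CPM ratio and a fitted difference between cell types need not match. Cell type and count table coincide throughout, so differences between cell types cannot be told apart from differences between tables. In such bulk libraries fewer cells of a type and less RNA per cell cannot be told apart either.

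**Figure D1:**
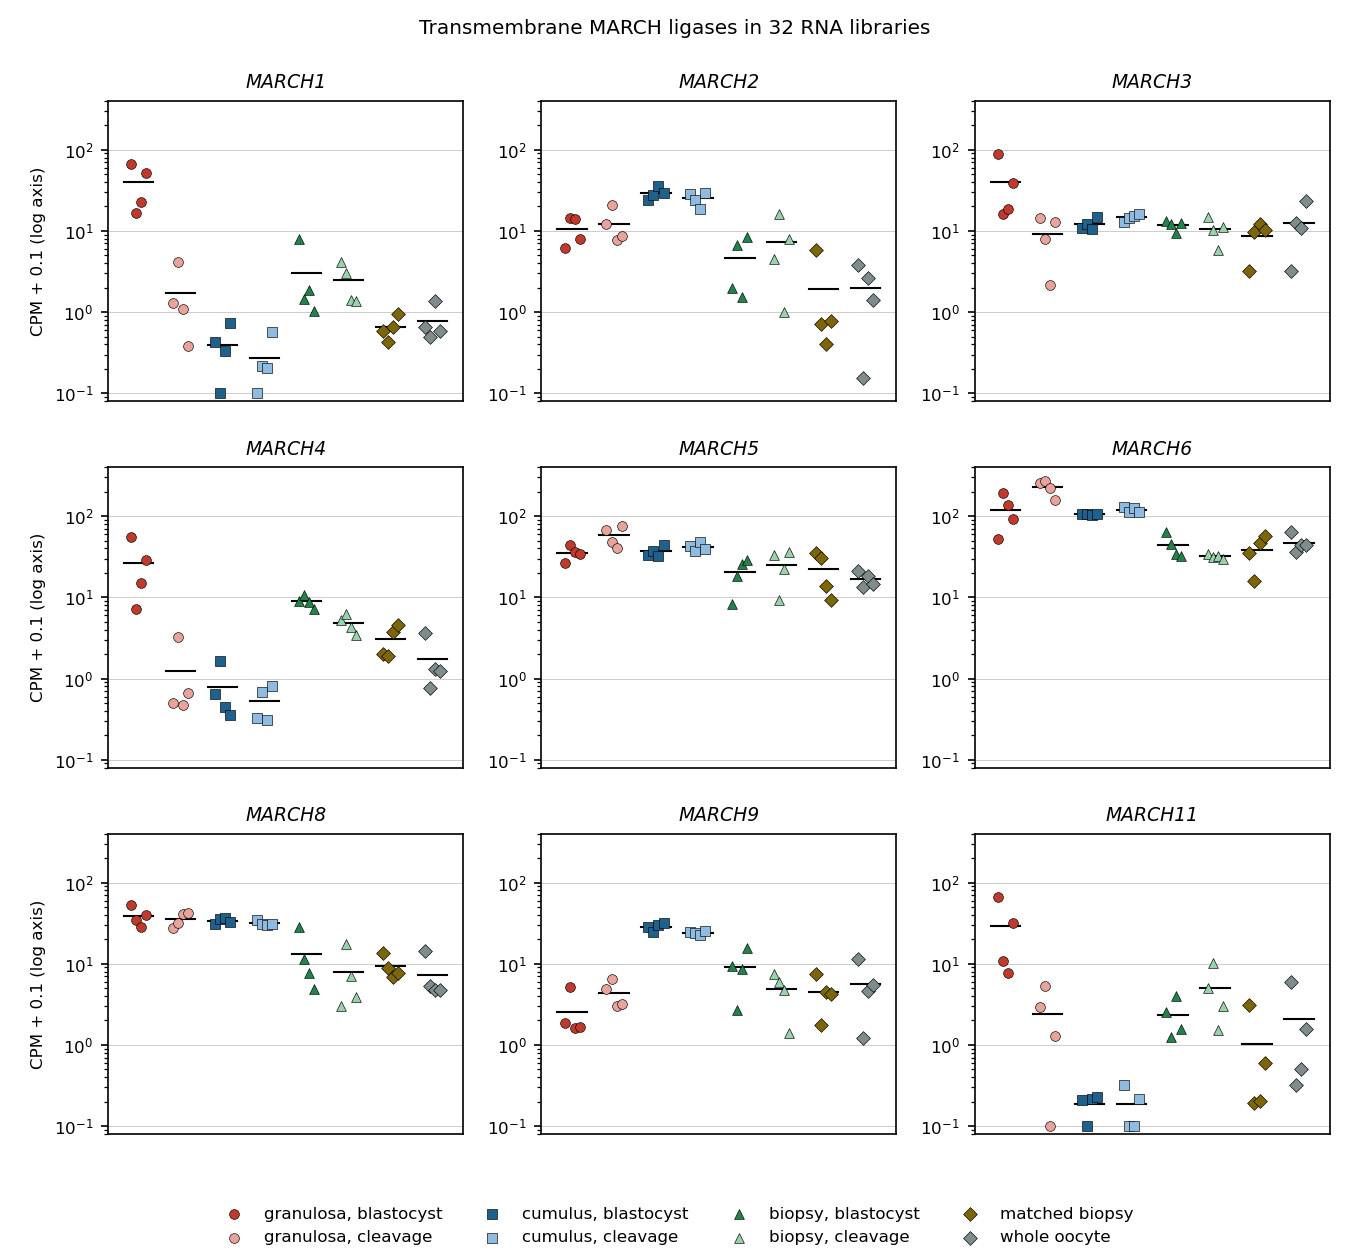
CPM + 0.1 on a log axis for the 9 transmembrane MARCH genes in 32 RNA libraries. Points are libraries, bars are group means, and colours mark cell type and fate. MARCH1, MARCH4 and MARCH11 are high in granulosa cells of the blastocyst group and near the floor in cumulus cells, whereas MARCH2 and MARCH9 are highest in cumulus cells.

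The organelle ligases MARCH5 and MARCH6 had counts in every library of every cell type, as did all other members except MARCH1 and MARCH11. MARCH5 stood at 35.1 ± 7.27 CPM in granulosa cells of the blastocyst group, with 26.1, 43.8, 36.1 and 34.1 in B20, B21, D24 and D27. The cleavage group had 67.1, 47.7, 40.7 and 75.5 CPM in B14, B23, D10 and D29, so only the lowest cleavage library fell within the blastocyst range. Cumulus cells held MARCH5 at 36.7 ± 5.04 and 41.8 ± 5.003 CPM in the blastocyst and cleavage groups, biopsies at 20.1 ± 9.04 and 25.0 ± 12.04, and whole oocytes at 16.7 ± 3.63. From granulosa cells of the cleavage group at the top to whole oocytes at the bottom, the ranges of neighbouring groups overlapped at each step. MARCH5 passed the test in none of the cell type comparisons of the edgeR fit, with a biopsy to granulosa difference of -0.44 on the log2 scale (95% interval -1.15 to 0.28). With library totals as the only scaling the same difference was -1.02 and passed. Whole oocytes against cumulus cells gave -0.23 (adjusted p 0.19), which passed as lower with DESeq2 (-0.43), its size factors in edgeR (-0.37), library totals (-1.25) or without oocyte 2 (-0.49).

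MARCH6 was lower in ooplasm biopsies than in granulosa cells, and its place in oocytes against cumulus cells depended on the scaling. Granulosa cells held 119.7 ± 61.1 CPM in the blastocyst group and 225 ± 51.0 in the cleavage group, cumulus cells 105 ± 1.94 and 120.0 ± 9.57, biopsies 43.8 ± 14.3 and 31.8 ± 1.92, and whole oocytes 46.9 ± 11.5. The 4 cumulus libraries of the blastocyst group lay between 102.8 and 107.5 CPM, and all 8 cumulus libraries lay above the highest whole oocyte, at 63.1. Against granulosa cells, MARCH6 in biopsies was 2.98-fold lower in a fit with fate as a covariate (log2 -1.58, SE 0.33, adjusted p 0.000442). It was lower in 7 of the 8 biopsies than in the granulosa cells of the same label, B20 being the exception. Whole oocytes against cumulus cells gave -0.27 (adjusted p 0.0892), and this passed as lower with DESeq2's size factors (-0.41), library totals (-1.27), DESeq2 itself (-0.46), no filter on low counts (-0.41) or without oocyte 2 (-0.56). Cumulus against granulosa cells gave -0.41 (adjusted p 0.064), and it passed with DESeq2 (-0.49), its size factors (-0.50), library totals (-0.50) and without the granulosa library B20 (-0.49). The cleavage groups alone, a choice made after seeing the data, gave a called -0.74.

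The pair MARCH1 and MARCH8 differed in where they were found. MARCH8 was even across the somatic cells, at 38.8 ± 10.7 and 35.5 ± 7.13 CPM in granulosa cells of the blastocyst and cleavage groups and 33.9 ± 2.83 and 31.3 ± 1.83 in cumulus cells. Biopsies held 12.9 ± 10.5 and 7.82 ± 6.66 CPM and whole oocytes 7.12 ± 4.63. The lowest of the 8 cumulus libraries, at 30.1, stood above the highest biopsy, B20 at 28.3. MARCH8 was lower in biopsies than in granulosa cells (log2 -1.36, SE 0.42, adjusted p 0.0106), in 8 of 8 oocyte labels, and lower in whole oocytes than in cumulus cells (log2 -1.20, SE 0.27, adjusted p 0.000557). The latter was -1.88 without oocyte 2 and -2.15 with library totals. Biopsies spread widely in MARCH8, from 2.96 CPM in B14 to 28.3 in B20, with a coefficient of variation of 83.0% against 8.01% in cumulus cells.

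MARCH1 was close to absent from cumulus cells, with 16 counts over all 8 libraries and a level of 0 to 0.637 CPM. Biopsies held 0.919 to 7.75 CPM, matched biopsies 0.325 to 0.840 and whole oocytes 0.390 to 1.29. Its group order ran from granulosa cells of the blastocyst group, at 39.6 ± 23.98 CPM, through biopsies and granulosa cells of the cleavage group, at 1.61 ± 1.64, down to cumulus cells. Only the first of these steps separated neighbouring groups without overlap. In cumulus against granulosa cells MARCH1 was called lower (log2 -5.58, SE 0.96, adjusted p 9.45e-05), with -4.91 without cumulus library 9 and -6.42 without cumulus library 8. Without the granulosa libraries B20 and D27 it was -4.40 and still called, and with the cleavage groups alone MARCH1 had too few counts to be tested. In whole oocytes against cumulus cells edgeR could test it only without the filter on low counts, where oocytes were called higher by 2.35 (DESeq2 gave 2.37).

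MARCH2 and MARCH3, the endosomal pair, also parted by cell type. MARCH2 was highest in cumulus cells, at 28.98 ± 5.01 and 25.0 ± 4.67 CPM in the blastocyst and cleavage groups, against 10.5 ± 4.21 and 12.2 ± 5.95 in granulosa cells and 1.89 ± 1.56 in whole oocytes. Cumulus over granulosa cells gave a 2.62-fold difference (log2 1.39, SE 0.21, adjusted p 2.82e-05), and whole oocytes were 7.15-fold below cumulus cells (log2 -2.84, SE 0.51, adjusted p 6.99e-05). Without oocyte 2 the second difference was -3.5, and with library totals -3.78. With the cleavage groups alone the cumulus to granulosa difference was 1.21 and was still called. Biopsies ranged in MARCH2 from 0.913 CPM (16 counts, D10) to 15.9 CPM (302 counts, B23), both in the cleavage group.

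MARCH3 was more even, at 11.9 ± 2.03 and 14.6 ± 1.37 CPM in cumulus cells, 11.7 ± 1.61 and 10.4 ± 3.74 in biopsies and 12.3 ± 8.25 in whole oocytes. Granulosa cells of the blastocyst group stood at 40.4 ± 33.6 CPM and those of the cleavage group at 9.18 ± 5.48. Neighbouring groups overlapped at every step of its order. Whole oocytes were called higher than cumulus cells by 0.91 on the log2 scale (SE 0.34, adjusted p 0.0216), but this became -0.19 when library totals alone set the scale, and it failed in DESeq2 (0.71, adjusted p 0.0697) and without oocyte 16 (0.41, adjusted p 0.243).

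Among the Golgi ligases, MARCH9 alone had its highest means in cumulus cells. Its 8 cumulus libraries lay between 22.6 and 31.98 CPM, all above the 1.11 to 15.4 CPM of every other library, each scaled within its own count table. Granulosa cells held 2.48 ± 1.70 CPM in the blastocyst group and 4.29 ± 1.61 in the cleavage group, biopsies 8.99 ± 5.26 and 4.80 ± 2.59, and whole oocytes 5.56 ± 4.198. The cumulus to granulosa difference was 8.70-fold (log2 3.12, SE 0.28, adjusted p 9.11e-08) and 2.65 on the log2 scale with the cleavage groups alone. Whole oocytes were 2.38-fold below cumulus cells (log2 -1.25, SE 0.38, adjusted p 0.00535), a difference of -1.94 without oocyte 2 and -2.16 with library totals. Biopsies were called higher than granulosa cells (log2 1.57, SE 0.58, adjusted p 0.0273), a call that was lost with the oocyte label as a replicate block (1.41, adjusted p 0.137), with library totals (1.06, adjusted p 0.111), without the granulosa libraries B20 and D27 (1.11, adjusted p 0.134) and with the cleavage groups alone (0.69, adjusted p 0.418). Biopsies exceeded granulosa cells in 3 of 4 blastocyst labels and 2 of 4 cleavage labels. It was also lost without any 1 of the granulosa libraries B20, D24, D27 and D10 or the biopsies B20, D24, D27 and B14, with log2 values of 1.20 to 1.42.

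MARCH4 and MARCH11 were nearly silent in cumulus cells. MARCH11 had 6 counts over the 8 cumulus libraries and MARCH4 had 38, at most 0.224 and 1.57 CPM. Biopsies held 3.36 to 10.6 CPM of MARCH4 and 1.16 to 10.2 of MARCH11. In whole oocytes the levels were 0.669 to 3.57 CPM of MARCH4 and 0.223 to 5.86 of MARCH11. Granulosa cells of the blastocyst group had the highest means, at 26.4 ± 21.1 CPM of MARCH4 and 29.3 ± 27.4 of MARCH11, with ranges that overlapped those of the next group, biopsies. Granulosa cells of the cleavage group held 1.13 ± 1.37 CPM of MARCH4 and 2.325 ± 2.285 of MARCH11. MARCH4 in B14, D10 and D29 of that group, at 0.378 to 0.562 CPM, lay within the cumulus range of 0.210 to 1.57. The fit took both fates together, and in it MARCH4 and MARCH11 were called lower in cumulus than in granulosa cells. The log2 differences were -3.45 (SE 0.95, adjusted p 0.00394) and -6.91 (SE 1.13, adjusted p 5.60e-05), and the second value depends on the prior count set against so few cumulus counts. Leaving out 1 library moved these by over 1.5 times, to -2.81 for MARCH4 and -6.23 for MARCH11 without cumulus library 9, and to -7.71 and -6.08 for MARCH11 without cumulus library 5 or granulosa library B20. The cleavage groups alone left too few counts of MARCH4 and MARCH11 for that test. Without the filter on low counts whole oocytes were called above cumulus cells for both, by 2.41 and 5.15. In the cleavage group biopsies exceeded granulosa cells in 4 of 4 oocyte labels for MARCH4 and for MARCH11. In the blastocyst group granulosa cells were higher, in 3 of 4 labels for MARCH4 and 4 of 4 for MARCH11. The cleavage groups alone, a choice made after seeing the data, called MARCH4 higher in biopsies (log2 2.64, adjusted p 0.0255) but not MARCH11 (1.63, adjusted p 0.255). In that fit 6456 of 20409 rows were called higher and 5165 lower. Over both fates the biopsy to granulosa difference of MARCH4 was 0.79 and not called.

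These counts are to be read against a large background. The share of all rows whose libraries do not overlap between cell types, as given above for MARCH6, MARCH8 and MARCH9, was not counted. Cumulus against granulosa cells called 2 of the 9 members higher and 3 lower, where 25.0% of 21929 rows were higher and 44.5% lower, and the members' median difference was -0.41 against -0.56 over all rows. Biopsies against granulosa cells called 1 member higher and 2 lower, beside 28.4% and 24.6% of 28229 rows, with medians of -0.44 and -0.06. Library totals moved that median over all rows to -0.63 and the split of calls from 8005 higher and 6939 lower to 6685 and 8672. Whole oocytes against cumulus cells called 1 of 6 tested members higher and 3 lower, beside 48.3% and 41.7% of 19202 rows. There the median over all rows was 0.33, against 0.19 with DESeq2's size factors and -0.71 with library totals, and the split went from 9280 higher and 8006 lower to 7462 and 9814 with totals. Relative to these shifts MARCH2, MARCH5, MARCH6, MARCH8 and MARCH9 lay below the median row in oocytes under all 3 scalings.

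In granulosa cells 3 of the 9 ligases were called higher in the blastocyst group: MARCH1, MARCH4 and MARCH11, by 24.7-fold, 23.6-fold and 12.6-fold. None was called lower. The cleavage libraries together held only 79, 54 and 118 counts of these 3 genes, against 2419, 1613 and 1783 in the blastocyst libraries. The 3 passed the filter on low counts through the blastocyst libraries, so the size of each fold rests on low cleavage counts. Over all 22934 rows tested 21.3% were called higher and 0.349% lower (25.5% and 0.209% of the 955 rows with a symbol), so a share of 3 in 9 is near the background of this comparison. The members' median difference was 0.13 on the log2 scale, against 0.10 over all rows. The question the design puts here is whether cells of the follicle differ with the later fate of its oocyte.

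MARCH1 read 67.3, 16.7, 22.7 and 51.8 CPM in the blastocyst libraries B20, B21, D24 and D27, and 1.18, 4.01, 0.982 and 0.281 CPM in the cleavage libraries B14, B23, D10 and D29. The groups did not overlap, with the lowest blastocyst library over 4 times the highest cleavage library. The difference was 4.62 on the log2 scale (SE 0.84, 95% interval 2.77 to 6.48, adjusted p 0.0116). Among oocytes labelled B the mean ratio was 16.2 and among those labelled D it was 58.9. Without the cleavage library B23 the differences of MARCH1, MARCH4 and MARCH11 were larger, at 5.51, 5.78 and 4.35.

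MARCH4 read 55.0, 7.13, 14.7 and 28.9 CPM in the blastocyst libraries, in the same order, and 0.394, 3.19, 0.378 and 0.562 in the cleavage libraries. No library of the cleavage group reached the blastocyst range, and B23 stood apart from the other 3 cleavage libraries. The log2 difference was 4.56 (SE 0.96, 95% interval 2.45 to 6.67, adjusted p 0.0121). The ratio of means was 17.4 within label B and 46.4 within label D.

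MARCH11, known from brain and from developing sperm, read 67.0, 10.6, 7.69 and 32.03 CPM in the blastocyst libraries and 2.83, 5.28, 0 and 1.20 in the cleavage libraries. D10 had no count at all, and the groups again did not overlap. Its log2 difference of 3.66 (SE 1.15, 95% interval 1.12 to 6.20, adjusted p 0.0443) was near the threshold, and the call was lost without any 1 of B20, B21, D27, B14 and D29, at 3.18 to 3.73. Ratios of 9.58 and 33.3 were found within labels B and D.

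MARCH3 did not pass the test, although its groups did not overlap. It read 88.6, 16.02, 18.7 and 38.4 CPM in the blastocyst libraries and 14.2, 7.83, 2.04 and 12.6 in the cleavage libraries, so a narrow gap between B21 and B14 separated the groups. The log2 difference was 2.14 (SE 0.71, adjusted p 0.0548). It passed with DESeq2 (2.70, adjusted p 0.00514), with DESeq2's size factors in edgeR (2.72, adjusted p 0.0382), with library totals (2.87, adjusted p 0.0267) and without D24 (2.33, adjusted p 0.0498). In all, 4 of the 9 members had every blastocyst library above every cleavage library, where 28.7% of all rows tested did, and none had every library below, where 9.64% did.

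The other 5 ligases did not pass in granulosa cells. MARCH6 read 52.8, 195, 137.8 and 93.2 CPM in the blastocyst libraries and 255, 270.5, 219 and 156 in the cleavage libraries, a log2 difference of -0.91 (95% interval -1.96 to 0.14). MARCH5 gave -0.72 (-1.52 to 0.08) and MARCH9 -0.79 (-2.34 to 0.77). MARCH2, at -0.21 (-1.39 to 0.97), and MARCH8, at 0.13 (-0.67 to 0.92), lay closest to 0, and both changed sign under other settings. Scaling by DESeq2's size factors or by library totals moved the median over all rows from 0.10 to 0.48 and 0.70, and MARCH5, MARCH6 and MARCH9 stayed negative under each.

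**Figure D2:**
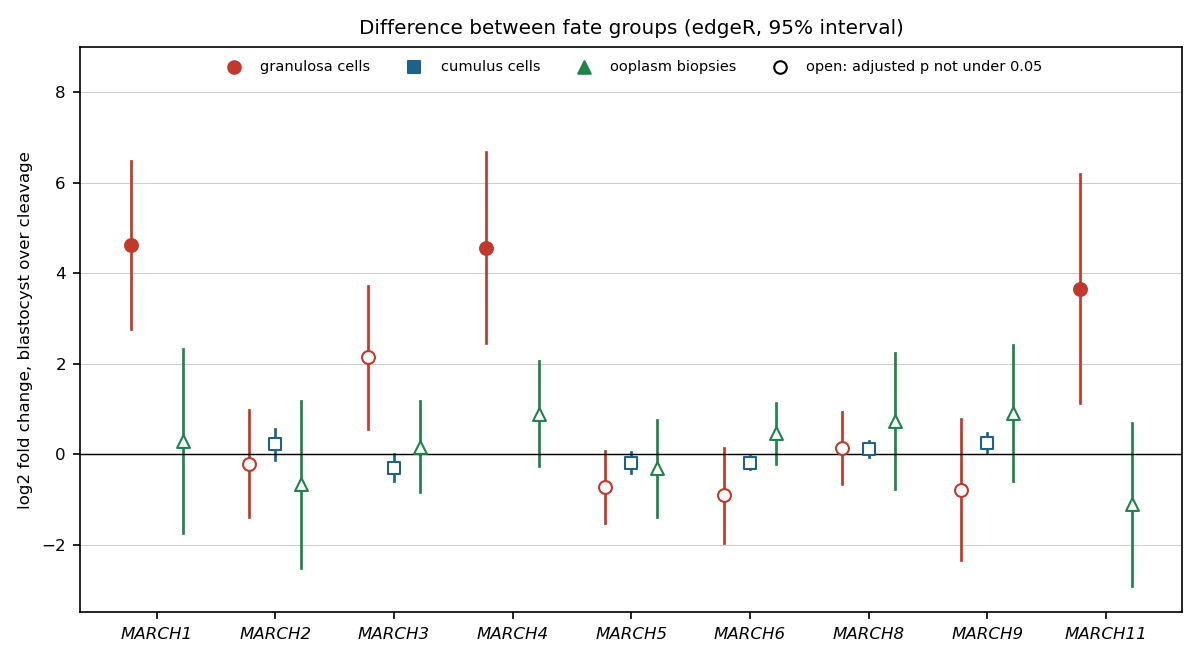
Log2 fold change of the blastocyst over the cleavage group (vertical axis) for each MARCH gene, with 95% intervals from edgeR. Circles are granulosa cells, squares cumulus cells and triangles ooplasm biopsies. Filled symbols passed an adjusted p of 0.05: MARCH1 (4.62), MARCH4 (4.56) and MARCH11 (3.66) in granulosa cells. MARCH1, MARCH4 and MARCH11 have no cumulus value because too few counts were left to test.

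Among the granulosa libraries of the blastocyst group B20 was highest and D27 next for MARCH1, MARCH3, MARCH4, MARCH8 and MARCH11. In the same libraries B20 was lowest and D27 next for MARCH2, MARCH5 and MARCH6. These CPM carry TMM factors of 1.56, 1.04, 1.01 and 1.36 in B20, B21, D24 and D27. MARCH5 had 396, 725, 592 and 496 counts there, at library totals of 9875705, 15941729, 16282017 and 10821126. Scaled by these totals alone, MARCH5 was lowest in D24. MARCH9 followed neither pattern, with B21 highest and D24 lowest. Without B20 and D27, none of the 9 members and none of the 23577 rows tested was called, although 4602 rows had an unadjusted p under 0.05. MARCH1, MARCH4 and MARCH11 then stood at 3.73, 3.41 and 2.08 on the log2 scale (adjusted p 0.143, 0.143 and 0.387). That fit had fewer blastocyst libraries and so less power, and no other pair of libraries was left out for comparison.

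Rows of olfactory, taste and pheromone receptors moved with these ligases across the granulosa libraries. Together they held 1599, 259.5, 266 and 788.5 CPM of library totals in B20, B21, D24 and D27, against 54.9 to 89.0 in the cleavage libraries. Of 1024 such rows 345 to 809 had a count in blastocyst libraries and 25 to 136 in cleavage libraries. Per 100 of these counts the blastocyst libraries held 6.45 to 8.83 counts of MARCH1 and 6.41 to 8.5 of MARCH3, a 1.37-fold and a 1.33-fold range, although their CPM varied 4.03-fold and 5.53-fold among these libraries. For MARCH4 the range was 2.85 to 5.57, for MARCH11 2.91 to 6.44, and for MARCH6 5.07 to 78.1. In the cleavage libraries the ranges were 0.280 to 5.30 for MARCH1, 0.532 to 4.21 for MARCH4, 0 to 6.98 for MARCH11, 2.88 to 19.5 for MARCH3 and 155 to 357.5 for MARCH6. Rows with at least 5 counts numbered 27546 ± 1170 in the blastocyst group and 19465 ± 1762 in the cleavage group (exact two-sided permutation test over 70 assignments, p 0.0286, the smallest these allow, n = 4). The oocyte marker H1FOO was also higher in the blastocyst libraries (5.80 to 22.3 CPM against 0.302 to 6.74), with B23 the highest of the cleavage group. The part of these quantities in the MARCH result was not tested.

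**Figure D3:**
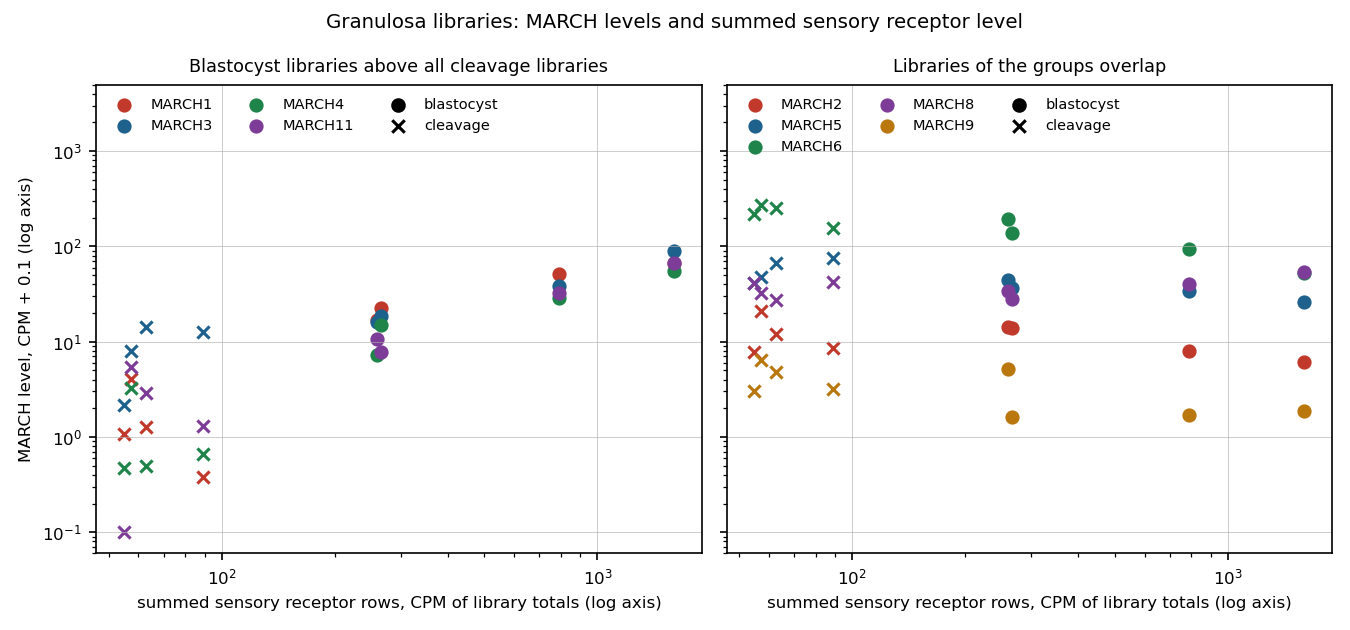
MARCH level (CPM + 0.1, log axis) in each granulosa library against the summed level of sensory receptor rows (CPM of library totals, log axis). Filled circles are blastocyst and crosses cleavage libraries. On the left, MARCH1, MARCH3, MARCH4 and MARCH11 climb from B21 and D24 (259.5 and 266 on the horizontal axis) to B20 (1599). On the right MARCH2, MARCH5 and MARCH6 are lowest in B20 among the blastocyst libraries, for MARCH5 only with TMM scaling.

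In cumulus cells none of the 6 ligases with enough counts passed the test between fates, nor did any of the 15410 rows tested (0% called, with 2249 rows and 3 members at an unadjusted p under 0.05). DESeq2 called 140 rows and no member. The cumulus libraries were tight, so the intervals are narrow. MARCH6 read 105.4, 105.6, 102.8 and 107.5 CPM in the blastocyst group and 131, 111, 125 and 112.5 in the cleavage group, with no overlap and a log2 difference of -0.19 (95% interval -0.34 to -0.04, adjusted p 0.255). It was the only member without overlap, where 4.69% of all rows lay wholly below and 4.23% wholly above. MARCH3 gave -0.30 (-0.59 to -0.0041), MARCH9 0.25 (0.04 to 0.46), MARCH2 0.21 (-0.12 to 0.55), MARCH5 -0.19 (-0.43 to 0.05) and MARCH8 0.11 (-0.07 to 0.30). None of these 6 intervals reaches a doubling in either direction. MARCH1, MARCH4 and MARCH11 had 10, 23 and 3 counts in the blastocyst group and 6, 15 and 3 in the cleavage group, and the filter on low counts removed them. Without the filter edgeR called none of the 3 (log2 0.75, 0.66 and 0.05, adjusted p 0.738, 0.676 and 0.991).

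In ooplasm biopsies 9 of 9 ligases had enough counts, and none passed between fates, with no call among 21174 rows (0% called, 1017 rows and 0 members at an unadjusted p under 0.05). DESeq2 called 172 rows and no member. MARCH4 alone did not overlap: it read 8.91, 10.6, 8.64 and 7.16 CPM in B20, B21, D24 and D27 of the blastocyst group, and 5.21, 6.15, 4.22 and 3.36 in B14, B23, D10 and D29 of the cleavage group. Of all rows 2.09% lay wholly above in this way and 1.42% wholly below, and the edgeR difference of MARCH4 was 0.90 (95% interval -0.27 to 2.06, adjusted p 0.9999). Its mean ratio was 1.71 within label B and 2.08 within label D. MARCH9 gave 0.91 (-0.60 to 2.41), MARCH8 0.73 (-0.78 to 2.23), MARCH6 0.46 (-0.22 to 1.14), MARCH1 0.30 (-1.73 to 2.33) and MARCH3 0.16 (-0.84 to 1.17). The negative values were those of MARCH11 at -1.11 (-2.91 to 0.70), MARCH2 at -0.67 (-2.52 to 1.17) and MARCH5 at -0.31 (-1.38 to 0.75). Each of these 9 intervals reaches past a doubling in at least 1 direction.

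The fate difference itself differed between cell types for some members. Granulosa cells against biopsies gave a difference of differences of 4.23 on the log2 scale for MARCH1 (SE 1.15, adjusted p 0.0365) and 3.56 for MARCH4 (SE 1.02, adjusted p 0.0425), where 6.35% of 28229 rows were called higher and 0.549% lower. MARCH11, at 4.62 (adjusted p 0.0527), and MARCH6, at -1.55 (adjusted p 0.0708), did not pass, although both did with DESeq2 and with its size factors in edgeR. With the oocyte label as a replicate block MARCH1 was called (4.75, adjusted p 0.0254) and MARCH4 was not (3.69, adjusted p 0.0718). Neither MARCH1 (3.87) nor MARCH4 (3.22) passed without the filter on low counts. Granulosa against cumulus cells called MARCH3 (2.82, SE 0.84, adjusted p 0.042) and MARCH4 (4.39, SE 1.25, adjusted p 0.0358) beside 9.91% of 21929 rows higher and 0.319% lower, while MARCH1 gave 4.30 (adjusted p 0.0775) and MARCH11 4.08 (adjusted p 0.241). Both interactions share the granulosa libraries, and without B20 and D27 neither called any of the 9 members.

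The spread between libraries, with both fates pooled, differed by cell type. Over the 12836 rows with a mean of at least 1 CPM in all 3 cell types, the median coefficient of variation across the 8 libraries was 50.1% in granulosa cells, 11.8% in cumulus cells and 46.6% in biopsies. The 6 members among these rows (MARCH2, MARCH3, MARCH5, MARCH6, MARCH8 and MARCH9) had medians of 43.6%, 13.1% and 54.8%. MARCH8 was the steadiest of the 6 in granulosa and in cumulus cells, at 23.1% and 8.01%, while in biopsies it stood at 83.0% and MARCH3, at 24.9%, was the steadiest.

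Biopsies were next set against whole oocytes of the same number, which addresses how well a sample of ooplasm stands for the oocyte. None of the 8 tested members was called, nor any of 18540 rows (0% called, 1028 rows and 0 members at an unadjusted p under 0.05), with or without the number as a replicate block. DESeq2 called 177 rows and no member. No member was without overlap between the groups, where 2.18% of all rows lay wholly above and 2.04% wholly below. MARCH6 read 35.3, 15.6, 46.9 and 56.1 CPM in biopsies 2, 3, 6 and 16 and 63.1, 36.2, 43.8 and 44.4 in the oocytes, with ratios of 0.432 to 1.26. Tighter still was MARCH8, with ratios of 0.967 to 1.68 and the biopsy higher in 3 of 4 pairs. MARCH3 ratios ran from 0.438 to 1.12, those of MARCH9 from 0.665 to 1.5, and those of MARCH5 from 0.640 to 2.33.

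MARCH2 ratios ran from 0.122 to 10.8, the highest in pair 3, where the oocyte held 1 count. MARCH4 was higher in the biopsy in 3 of 4 pairs (0.526 to 3.91) and MARCH1 in 1 of 4 (0.435 to 1.71). MARCH11, with too few counts for the test, was lower in the biopsy in 4 of 4 pairs, at 2.998, 0.0928, 0.102 and 0.504 CPM in the biopsies and 5.86, 0.223, 0.410 and 1.47 in the oocytes. Its counts were 43, 2, 2 and 9 against 118, 4, 7 and 27. Number 2 held the highest level of MARCH2, MARCH5, MARCH8, MARCH9 and MARCH11 in both kinds of sample, and the lowest of MARCH3 in both.

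**Figure D4:**
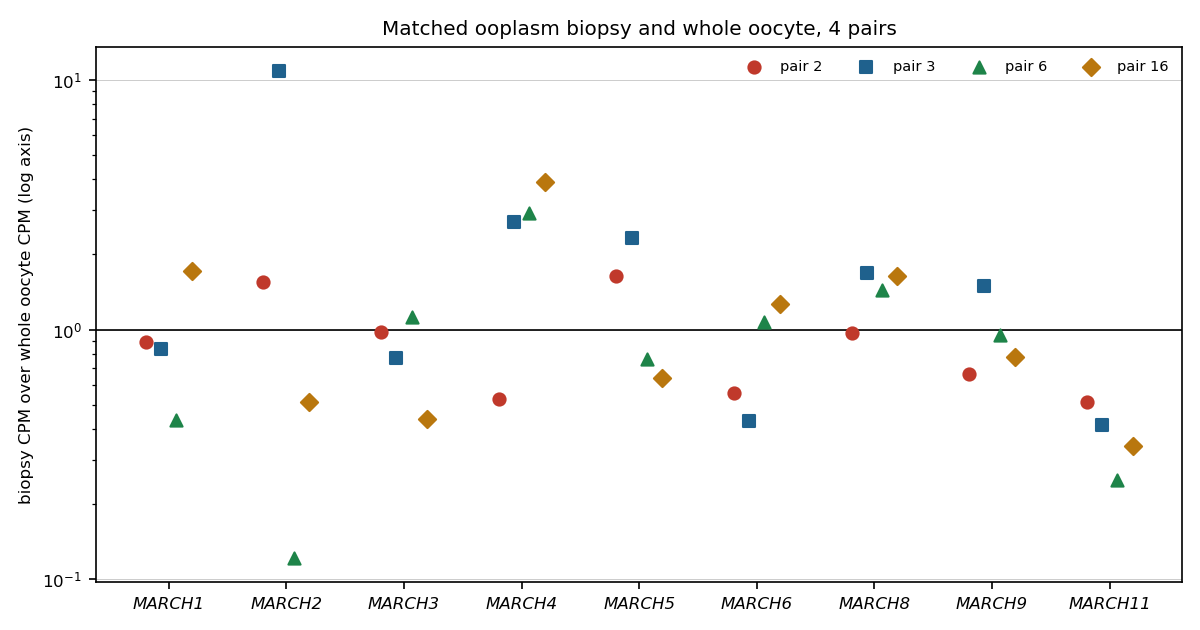
Ratio of ooplasm biopsy to whole oocyte CPM (log axis) for each MARCH gene in the 4 pairs of matching number. The line marks equal levels. MARCH11 lies below it in 4 of 4 pairs (0.249 to 0.512) and MARCH2 spreads widest (0.122 to 10.8).

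MARCH7 and MARCH10, the family members without membrane spans, showed patterns of their own. MARCH7 stood at 127 to 363 CPM in oocytes and 142 to 362 in biopsies with a fate, and at 46.4 to 74.2 in cumulus cells. It was called higher in oocytes than in cumulus cells (log2 3.01, SE 0.22, adjusted p 2.10e-09), higher in biopsies than in granulosa cells (0.98, adjusted p 0.00971; 0.46 and not called with library totals) and lower in cumulus than in granulosa cells (-1.06, adjusted p 0.000249). MARCH10, which acts in sperm development, had its highest group means in cumulus cells (62.9 ± 13.4 and 61.2 ± 9.40 CPM). There it was called higher than in granulosa cells, by 2.07 (adjusted p 0.000527). Whole oocytes were called lower than cumulus cells in MARCH10 (-0.74, adjusted p 0.000936). In granulosa cells MARCH10 read 49.0, 18.9, 23.1 and 37.9 CPM in the blastocyst libraries and 4.27, 11.5, 7.25 and 5.90 in the cleavage libraries. The groups did not overlap, and the rise of 2.16 was called (SE 0.50, adjusted p 0.015), with B20 and D27 again the highest. MARCH7 gave -1.06 there (adjusted p 0.134). Without B20 and D27 the MARCH10 rise was 1.62 and not called (adjusted p 0.143). Granulosa against cumulus cells gave MARCH10 a difference of differences of 2.50 (SE 0.51, adjusted p 0.0109), where 9.91% of 21929 rows were called higher. That interaction stayed called under each alternative tried, also without B20 and D27 (adjusted p at most 0.0444). Against biopsies it was 2.21 and not called (adjusted p 0.0541).

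Few other genes of the ubiquitin and membrane-traffic lists could be followed, since most rows carry no symbol. A row under a symbol was found for 1 of 29 ubiquitin and conjugation genes (TMEM189). Degradation at the endoplasmic reticulum had 1 of 42 (ASNA1), mitochondrial genes 0 of 21, and surface and traffic targets 1 of 44 (VAMP3). Rows were found for 4 of 37 other RING ligases with membrane spans and 2 of 28 genes listed by older symbols (RNF219 and WDR92). None of those tested was called between fates in granulosa cells (0 of 7), cumulus cells (0 of 8) or biopsies (0 of 8). Over all rows 21.3% were called higher and 0.349% lower in granulosa cells, and 0% in the other 2. Between cell types calls were common among all rows. In biopsies against granulosa cells 28.4% were higher and 24.6% lower, in oocytes against cumulus cells 48.3% and 41.7%, and in cumulus against granulosa cells 25.0% and 44.5%. The testis RING ligases RNF133 and RNF148 and the related RNF149 were all called higher in biopsies than in granulosa cells, by 3.13, 7.13 and 2.20 on the log2 scale, and higher in oocytes than in cumulus cells, by 5.07, 4.86 and 2.49. ZNRF4 had too few counts for these tests. VAMP3, an endosomal SNARE protein, was called higher in biopsies (1.67) and oocytes (2.61) in the same comparisons. ASNA1, which delivers tail-anchored proteins to the endoplasmic reticulum, was called lower in both (-5.34 in oocytes), at 1.54 and 3.18 CPM in biopsies of the 2 fates against 33.2 and 61.8 in granulosa cells (log2 -3.78, SE 0.66). TMEM189, a lipid desaturase gene that can be read through into UBE2V1, was called higher in cumulus than in granulosa cells (2.40) and in biopsies than in granulosa cells (1.63), and lower in oocytes than in cumulus cells (-1.63). RNF219 and WDR92 were both called higher in biopsies than in granulosa cells, by 2.77 and 1.65, and higher in oocytes than in cumulus cells, by 4.59 and 1.90. In cumulus against granulosa cells RNF148 (2.31) and ASNA1 (1.15) were called higher, and RNF133 (-1.45) and RNF219 (-0.65) lower. RNF149, WDR92 and VAMP3 were not called between these somatic cells.

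Across all 32 RNA libraries the symbol rows most like each ligase were ranked by Pearson's r of log2(CPM + 1), among 849 rows with a mean of at least 1 CPM. The points share cell type, table and depth, so r is a description of shared levels. MARCH1 was most like DUSP27 (0.968), ACPP (0.956) and CTXND1 (0.953), MARCH4 like KAZN (0.927), KIAA1211L (0.924) and DLGAP2 (0.921), and MARCH11 like GABRG3 (0.909), ST6GALNAC3 (0.904) and KCNJ6 (0.899). For MARCH6 the nearest were NCBP2-AS2 (0.946), ATP5MPL (0.926) and H2AFZ (0.921), and for MARCH5 SELENOW (0.843), C3H1orf123 (0.841) and CHCHD8 (0.813). MARCH2 was nearest to FAXDC2 (0.905), CCDC151 (0.883) and WDR90 (0.882), MARCH9 to ZNF783 (0.879), IMPAD1 (0.871) and KIAA0754 (0.854), and MARCH8 to CSF2RA (0.886), MUM1L1 (0.878) and FAM129A (0.875). MARCH3 had no close match, with ZNF407 (0.713), CFAP46 (0.710) and CPNE4 (0.705) first. Among the ligases themselves MARCH1 went with MARCH11 (0.874) and MARCH4 (0.839), and MARCH4 with MARCH11 (0.819), while MARCH1 and MARCH2 gave -0.02.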

How the data were processed

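RNA was counted in 32 bovine libraries, 4 per group, from 4 count tables. The authors deposited whole-number counts per row, and these were used as deposited. Per the labels' protocols, the kits were SMART-Seq HT and Nextera XT. Tools named for RNA, per the submitters' processing notes, include STAR and featureCounts, with read trimming by Trim Galore and cutadapt. The sources used here give no version, setting, strand use or genome build, so no positions are printed and reads of overlapping genes cannot be told apart. Polar body methylation calls were not used here.

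Every comparison had a fit of its own in edgeR 4.0.16 in R 4.3.3 (filterByExpr, TMM, robust quasi-likelihood F tests, Benjamini-Hochberg adjustment over all rows tested). DESeq2 1.42.0 (Wald test, every row with a count), other scalings, no filter, left-out libraries and blocks were alternatives. CPM are counts divided by the library's total over rows past the filter times its TMM factor, and multiplied by 1000000. Each library has its own TMM factor, computed within its count table. The granulosa and biopsy fate tests were also run on simulated counts with as many rises as falls. In the granulosa data 4884 rows were called higher and 80 lower, and the simulation does not cover such an imbalance. Comparisons between cell types were not simulated. Python 3.11.15, pandas 2.3.3, numpy 2.4.6 and matplotlib 3.10.9 made tables and figures.

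The members and gene lists were chosen with earlier results of these data known. The text names all 9 members, MARCH7 and MARCH10, the listed genes with a row, by counts and with values for those past the threshold, and for each member the 3 symbol rows of highest correlation. Same-numbered biopsies and oocytes deviated together (correlations of 0.194 to 0.311 in 4 pairs, -0.349 to 0.236 for other numbers), so the numbers were taken as pairs. Granulosa cells and biopsies of 1 label gave -0.0313 to 0.109, and their pairing rests on the series text. Replicates differed by more than counting noise (lowest chi-square over its degrees of freedom 4.70, among 48 pairs). Since no label says which samples are separate animals, a p-value here reflects the spread among these samples alone, and that spread may be technical.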

Additional observations from a re-analysis of the deposited data

Results flagged for a closer look

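Of 69 gene-by-group sets of 4 libraries tested, 7 held a library that lay apart from the other 3 by Dixon's criterion, where chance gives about 1 in 20. MARCH1 stood at 7.75 CPM in the blastocyst biopsy B20 against 0.919 to 1.76 in the other 3, and B20 was also the granulosa library with the highest MARCH1. MARCH2 and MARCH11 stood at 5.72 and 2.998 CPM in matched biopsy 2, against 0.306 to 0.672 and 0.0928 to 0.504, and MARCH8 at 14.1 in whole oocyte 2 against 4.62 to 5.18. MARCH4 was 3.19 CPM in granulosa cleavage library B23 against 0.378 to 0.562, and MARCH9 was 5.02 in granulosa blastocyst library B21 against 1.53 to 1.78. MARCH8 was 33.99 CPM in cumulus cleavage library 5 against 30.1 to 30.6, a small step in a tight group.

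The fate difference of granulosa cells exceeded that of biopsies for MARCH1 (4.23 on the log2 scale) and MARCH4 (3.56), and that of cumulus cells for MARCH3 (2.82) and MARCH4 (4.39), each by the interaction term of an edgeR fit. Of all rows 6.35% and 9.91% were called higher by these terms. Without granulosa libraries B20 and D27 no member was called. Against biopsies MARCH1 and MARCH4 also failed without the filter on low counts, and MARCH4 with the oocyte label as a replicate block.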

How the results depend on the processing

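Over the 9 members and the alternatives tried, 918 values kept their direction and their side of the threshold, 29 lost a call, 27 gained one and 42 changed sign. The choice of cleavage groups only, and the fits of cell types without granulosa libraries B20 and D27, were added after seeing the data. Causes were not tested.

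Without B20 and D27 the number of called members fell to 0 in the granulosa fate comparison and in both interactions. The granulosa to biopsy interaction called 4 with DESeq2 (5597 of 45487 rows), with DESeq2 size factors (2496 of 28229) and at an adjusted p of 0.10. It called 0 without the filter (1237 of 45487) and 1 with the oocyte label as a replicate block (1401 of 28229). Cumulus against granulosa cells called 3 of 6 tested members with cleavage groups only, beside 10307 of 16611 rows. Oocytes against cumulus cells called 8 with DESeq2 and 8 without the filter, which both tested all 9. Beside them 23164 and 26927 of 37760 rows were called.

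Signs changed in the granulosa fate comparison for MARCH2 (0.0661 with DESeq2, 0.0731 with its size factors, 0.31 with totals, 0.29 without B20 and D27) and MARCH8 (-0.11 without the filter, -0.14 without B20 and D27). With library totals MARCH10 gave 0.0443 in matched biopsies against oocytes and -0.10 in biopsies against granulosa cells, MARCH3 -0.19 in oocytes against cumulus cells, MARCH5 0.0774 and MARCH8 0.12 in the biopsy interaction, and MARCH2 0.0922 in the cumulus interaction, where MARCH8 gave -0.35 without B20 and D27. In biopsies against granulosa cells, cleavage groups only gave MARCH1 1.14, MARCH3 0.70 and MARCH11 1.63, the fit without B20 and D27 gave MARCH3 0.31 and MARCH11 0.20, and the replicate block gave MARCH3 0.0541. In cumulus against granulosa cells MARCH3 gave 0.40 and MARCH8 0.18 without B20 and D27, and MARCH3 0.81 with cleavage groups only.

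Leaving out 1 library at a time crossed 0 for MARCH2 (-0.52 to 0.13) and MARCH8 (-0.0472 to 0.22) in granulosa fate, MARCH10 in cumulus fate (-0.0932 to 0.15), and MARCH1 (-0.84 to 0.68, negative without B20), MARCH2 (-1.17 to 0.0425), MARCH3 (-0.0335 to 0.39) and MARCH8 (-0.0218 to 1.498) in biopsy fate. It did so for MARCH1 (-0.56 to 0.22), MARCH2 (-1.79 to 0.46), MARCH9 (-0.69 to 0.24) and MARCH10 (-0.48 to 0.21) in biopsies against oocytes, for MARCH3 in biopsies against granulosa cells (-0.74 to 0.13), and for MARCH3 (-0.81 to 0.0015), MARCH5 (-0.10 to 0.14) and MARCH8 (-0.17 to 0.19) in cumulus against granulosa cells.

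Over all rows the granulosa fate comparison called 4964, against 11431 with DESeq2, 2482 without D27, 3162 without B20, 8131 without B23 and 0 without B20 and D27. Leaving out cumulus library 12 or 7 called 7 or 3 rows in cumulus fate. The biopsy interaction called 1948 rows, against 5597 with DESeq2, 3783 with totals, 1237 without the filter and 45 without B20 and D27, and the cumulus interaction 2244, against 5561 with DESeq2 and 393 without B20 and D27. Oocytes against cumulus cells called 17286 rows and 26927 without the filter. Without the filter, cumulus fate called 183 rows, biopsy fate 27 and biopsies against oocytes 13. The replicate block ended the calls of MARCH9 (1.41) in biopsies against granulosa cells and of MARCH4 (3.69) in the interaction, and ended no other call of a member. No paired analysis was possible for cumulus cells because their columns carry the fate but not the number of the sample title. Low counts limited MARCH1, MARCH4 and MARCH11 in cumulus cells and in granulosa cells of the cleavage group, and MARCH11 in matched biopsies.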
